A study of Mus musculus with 12 samples.

Results

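Expression of 10 genes of the Notch pathway and its neighbour Rest was followed across 4 treatment groups of mouse lung tumours. The genes were taken by symbol from a table of 22738 genes. They were the receptors Notch1, Notch2 and Notch3, the ligands Jag1, Jag2, Dll1 and Dll4, the target repressors Hes1 and Hey1, and Rest. All 10 passed the filter on low counts and were among the 17426 genes tested.

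RNA-seq was run on lung tumours of engineered mice that develop small cell lung cancer, which is neuroendocrine. All mice, controls included, carried Rb1 fl/fl and p53 fl/fl together with the Myc lsl/lsl T58A allele. Tumours were induced at 8 weeks of age by Ad5CGRP-Cre, an adenovirus given through the trachea in which the promoter of the neuroendocrine peptide CGRP drives Cre, so cells that Cre did not reach keep intact Rb1 and p53 alleles. The 12 libraries comprised 3 each from control, anti-PD-1, entinostat and combination tumours. Entinostat inhibits class I histone deacetylases and was dosed by mouth at 15 mg/kg each day over 28 days. The anti-PD-1 antibody, which blocks an inhibitory receptor of T cells, was dosed at 10 mg/kg, 2 times a week over 4 weeks. The combination group had both agents and the control group neither. The labels mention methylcellulose vehicle and a rat IgG2a isotype antibody as controls and do not say which of them the control libraries had. Separate mice are not stated for the libraries, and the spread behind each p-value may therefore be partly technical.

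Notch receptors are cut in the membrane when a ligand of the Jagged or Delta family on a neighbouring cell pulls on them. The freed intracellular domain enters the nucleus, binds the DNA-binding protein RBPJ and switches on repressors of the Hes and Hey families. REST is a repressor that keeps neuronal genes silent in non-neuronal cells and works with histone deacetylases. In small cell lung cancer, Notch activity is known to oppose the neuroendocrine state, in part through REST. In vessels, endothelial cells and mural cells (pericytes and smooth muscle) also use the pathway.

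Total counts ranged from 31295987 to 54001886 per library, and the lowest count of any of the 10 genes in any library was 45, for Hes1. Neuroendocrine markers were present in every library, with Uchl1 between 109 and 755 CPM (a gene's count relative to the library total, scaled by TMM factors) and Ncam1 between 93.9 and 396 CPM. Libraries differed in other ways as well. The structural RNAs Rpph1, Rn45s and Rmrp took between 7.84% and 36.4% of counts. The 3 libraries with the largest shares, from 20.5% up, were those of the anti-PD-1 group. The control libraries had the smallest shares, up to 13.2%, against 15.2% or more in every treated library. Control totals were also the largest, from 40534618 up, where the next was 40469275. TMM factors were 1.02 to 1.16 in libraries with entinostat and 0.815 to 0.986 in those without. Effects of these library differences cannot be told apart from those of treatment. The mean log2 CPM of 12 alveolar epithelial markers ran from -1.45, in control library 1, to 5.29, in combination library 1.

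Of these genes, Notch2, Notch3 and Jag2 rose when the 6 libraries with entinostat were compared with the 6 without. Their promoters are shown for that reason, from 250 bases before to 50 bases after the start of transcription, 5′ to 3′ on the gene's strand (RefSeq, GRCm38.p6). The table of promoters held 7 of the 10 genes. Capitals mark matches on either strand to a GC box (GGGCGG or CCGCCC) or to an N box (CACNAG or CTNGTG), the latter a site type described for Hes repressors. Matches of a motif may share bases.
Notch2, chr3:98013288-98013587, plus strand: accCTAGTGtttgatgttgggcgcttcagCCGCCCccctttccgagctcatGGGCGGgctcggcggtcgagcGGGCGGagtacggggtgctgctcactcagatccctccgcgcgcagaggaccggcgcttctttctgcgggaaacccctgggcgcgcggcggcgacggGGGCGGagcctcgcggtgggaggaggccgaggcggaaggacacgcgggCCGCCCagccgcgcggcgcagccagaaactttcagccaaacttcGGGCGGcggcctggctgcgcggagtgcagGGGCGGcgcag
Notch3, chr17:32166841-32167140, minus strand: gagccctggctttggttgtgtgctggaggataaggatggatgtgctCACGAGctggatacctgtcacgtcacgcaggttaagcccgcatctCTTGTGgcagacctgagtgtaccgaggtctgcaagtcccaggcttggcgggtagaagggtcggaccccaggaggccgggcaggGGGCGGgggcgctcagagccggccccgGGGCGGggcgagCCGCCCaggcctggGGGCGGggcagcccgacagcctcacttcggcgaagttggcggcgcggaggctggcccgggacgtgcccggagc
Jag2, chr12:112929446-112929745, minus strand: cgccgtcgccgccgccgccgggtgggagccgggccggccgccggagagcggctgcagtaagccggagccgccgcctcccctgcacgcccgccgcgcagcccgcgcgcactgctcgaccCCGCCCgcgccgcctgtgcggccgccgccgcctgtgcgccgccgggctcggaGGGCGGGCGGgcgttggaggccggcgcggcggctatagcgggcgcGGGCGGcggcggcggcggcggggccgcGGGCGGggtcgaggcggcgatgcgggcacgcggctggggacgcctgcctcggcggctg

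The Jag2 window held 63 CpG dinucleotides, a number reached by 0.0304% of 32851 promoter windows of that length, and 5 GC boxes, a number reached by 2.71%. The Notch2 window held 41 CpG dinucleotides (reached by 3.46%) and 7 GC boxes (reached by 0.627%). The Notch3 window held 25 CpG dinucleotides (reached by 18.4%) and 4 GC boxes (reached by 5.49%). The median window held 7 CpG dinucleotides, and 35.7% of windows held a GC box. GC boxes were not limited to the genes that rose, as the windows of Notch1 and Dll4 held 5 and 2. Those of Jag1 and Dll1 held none. An N box stood in the Notch2 window in 1 copy and in the Notch3 window in 2 copies, was not in that of Jag2, and was in 42.5% of all windows. The RBPJ core TGGGAA (or TTCCCA), in 25.6% of all windows, and the MYC-type E box CACGTG, in 7.15%, had no match in these windows. A match or its absence describes the letters of this window alone.

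The entinostat main effect is the mean of 2 differences, entinostat minus control and combination minus anti-PD-1. By edgeR's quasi-likelihood test with Benjamini-Hochberg adjustment over all genes tested, 3 of the 10 genes rose and none fell at an adjusted p under 0.05, where 10.6% of all genes passed, 3.87% higher and 6.74% lower. That balance depended on the scaling: 674 of 1849 calls were higher with TMM factors and 1046 of 1678 with upper quartile factors, and the same 3 genes passed with both. The median log2 fold change was 0.58 over the 10 genes and 0.02 over all genes tested. In the 2 differences taken alone, 2 of the 10 rose with entinostat against control (5.27% of all genes passed, 1.3% higher and 3.98% lower). None of the 10 passed with the combination against anti-PD-1, where 0% of all genes passed, 12.4% had an unadjusted p under 0.05 and DESeq2 called 429 genes, Jag2 among them. With the combination against control, 4 of the 10 rose, namely Notch2, Notch3, Jag2 and Rest, where 11.7% of all genes passed, 3.88% higher and 7.78% lower. Entinostat against control and combination against control share the control libraries, and both share libraries with the main effect, so their calls are not independent of each other. Fitted on the 2 groups alone, neither comparison with control called any of the 10 genes, or any other gene. Without control library 1, which had the lowest alveolar markers, the calls were Notch2 and Jag2 in the main effect, none for entinostat against control, and Notch3 and Jag2 for the combination against control.

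**Figure D1:**
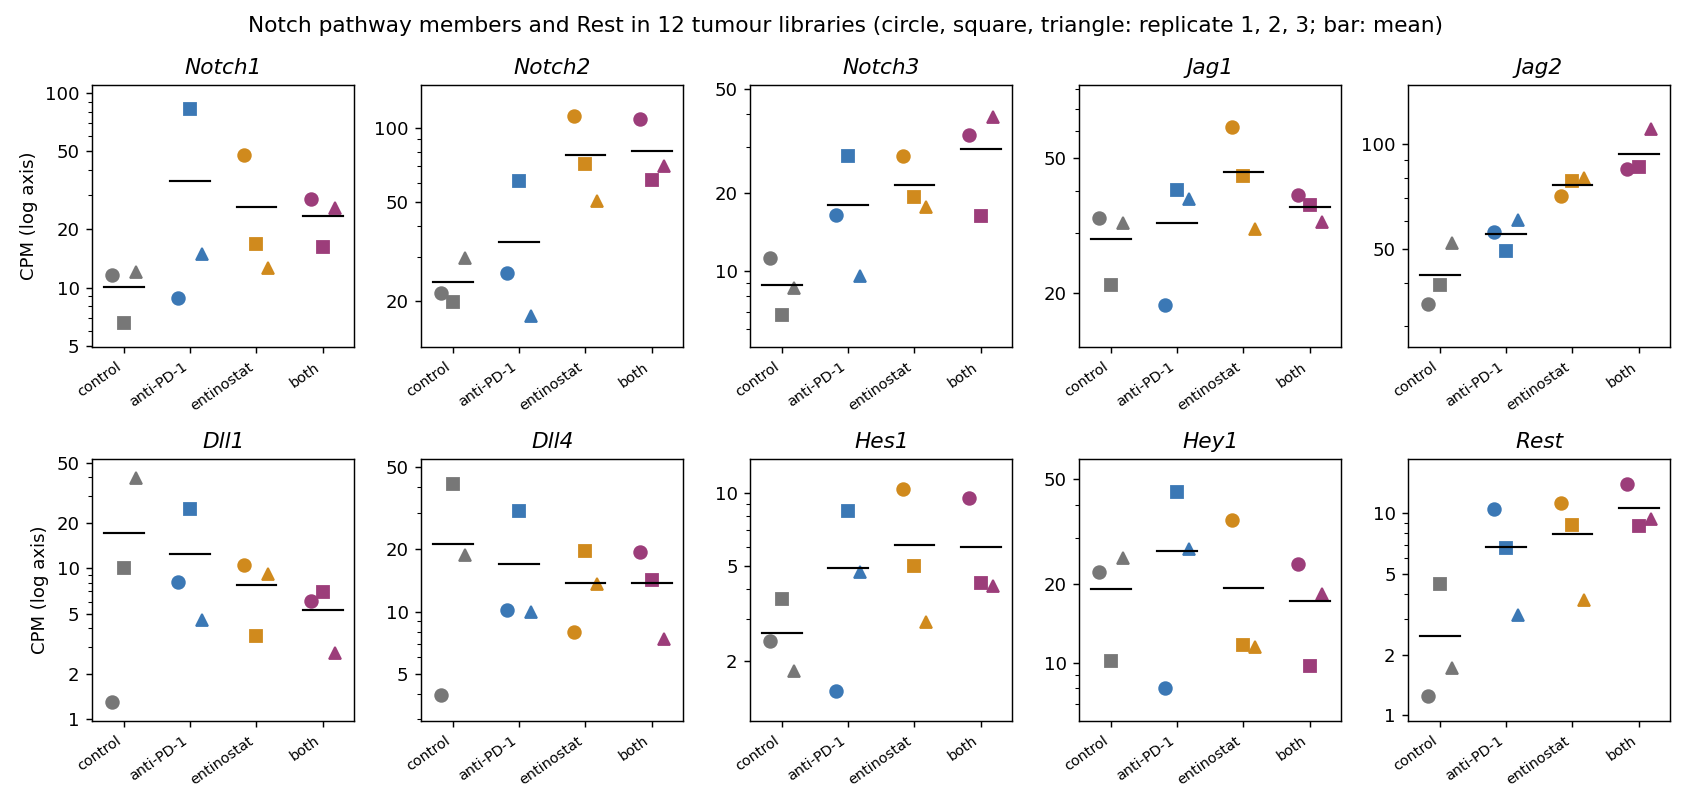
CPM of each of the 10 genes in the 12 libraries, on a log axis that differs between panels; circles, squares and triangles are replicates 1, 2 and 3, and bars are group means. Jag2 in the 6 libraries with entinostat (70.7 to 111 CPM) lies above the 6 without (34.8 to 60.6 CPM), and Dll1 spreads from 1.29 to 39.9 CPM within the control group.

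Among the receptors, Notch2, which is expressed in many tissues, had the largest log2 fold change in the entinostat main effect. It stood at 21.7, 19.9 and 29.9 CPM in the control libraries and at 25.9, 61.0 and 17.4 CPM with anti-PD-1. With entinostat it stood at 111, 71.2 and 50.6 CPM. The combination libraries had 109, 61.8 and 70.1 CPM. Every combination library and every library with entinostat alone was above every control library, while anti-PD-1 library 2 reached into the range of entinostat alone but not into that of the combination. Over the main effect the 6 libraries with entinostat averaged 79.0 CPM ± 25.2 and the 6 without 29.3 CPM ± 16.2 (SD). The log2 fold change between them was 1.46 (SE 0.31, edgeR adjusted p = 0.0187). Against control, Notch2 rose by 1.71 with entinostat (SE 0.45, edgeR adjusted p = 0.0490) and by 1.75 with the combination (SE 0.45, edgeR adjusted p = 0.0308). The combination against anti-PD-1, which shares no library with entinostat against control, gave 1.21 (SE 0.44, unadjusted p = 0.0184, edgeR adjusted p = 0.320). The main-effect call was lost without anti-PD-1 library 1 or combination library 1 (highest edgeR adjusted p = 0.0521) and was kept in the other 10 fits that left out a library. The call for entinostat against control held in 2 of the 12 such fits and that for the combination against control in 7.

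Notch3, a receptor best known from vascular smooth muscle and pericytes, differed less. Its control libraries had 11.2, 6.81 and 8.60 CPM and its anti-PD-1 libraries 16.5, 27.6 and 9.61 CPM. Entinostat libraries had 27.7, 19.2 and 17.6 CPM and combination libraries 33.4, 16.3 and 38.9 CPM. Both groups with entinostat were above all control libraries, and the anti-PD-1 libraries overlapped each of the other groups. The main effect was 1.00 (SE 0.29, edgeR adjusted p = 0.0489), with 25.5 CPM ± 9.32 against 13.4 CPM ± 7.70 (SD, 6 libraries each). This call lay at the threshold, since it held in 2 of the 12 fits without a library (without anti-PD-1 or combination library 2) and not without a filter on low counts (0.0543). Against control, the combination gave 1.74 (SE 0.42, edgeR adjusted p = 0.0264), entinostat 1.28 (SE 0.41, adjusted p = 0.0904) and anti-PD-1 1.01 (SE 0.41, adjusted p = 0.277).

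Notch1, the receptor most used in T cell and epithelial development, had no comparison past the threshold. It stood at 11.7, 6.58 and 12.0 CPM in the control group and at 8.85, 82.3 and 15.0 CPM with anti-PD-1. Entinostat libraries had 48.0, 16.7 and 12.6 CPM and combination libraries 28.4, 16.2 and 25.6 CPM. The values of both entinostat groups lay above all control values, but anti-PD-1 library 2 was the highest of the 12 libraries. The main effect was 0.38 (95% confidence interval -0.74 to 1.50, edgeR adjusted p = 0.652). Anti-PD-1 against control gave 1.81 (SE 0.75, unadjusted p = 0.0331, adjusted p = 0.281), and 0.22 without anti-PD-1 library 2.

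The ligand Jag2 had the smallest standard error and the smallest p of the 10 genes in the main effect. Its control libraries had 34.8, 39.4 and 52.0 CPM and its anti-PD-1 libraries 55.8, 49.4 and 60.6 CPM. Entinostat libraries had 70.7, 78.2 and 79.9 CPM and combination libraries 84.6, 85.9 and 111 CPM. It was the 1 gene of the 10 for which all 6 libraries with entinostat were above all 6 without, where 2.01% of all genes were. The group order was control, anti-PD-1, entinostat, combination. Control and anti-PD-1 were neighbours whose ranges overlapped, while the combination range lay above that of entinostat (log2 fold change 0.30, SE 0.19, edgeR adjusted p = 1; 3.32% of all genes were higher without overlap there). The main effect was 0.81 (SE 0.14, edgeR adjusted p = 0.00904), with 85.0 CPM ± 13.7 against 48.7 CPM ± 9.82 (SD, 6 libraries each), and the call held in each of the 12 fits without a library. Jag2 rose by 0.86 with entinostat against control (SE 0.19, adjusted p = 0.0305) and by 1.16 with the combination against control (SE 0.19, adjusted p = 0.00878). Added to anti-PD-1, entinostat gave 0.76 (SE 0.19, unadjusted p = 0.00188, adjusted p = 0.201). That size differed from the one without the antibody by -0.09 on the log2 scale (interaction, 95% confidence interval -0.68 to 0.49, edgeR adjusted p = 0.979).

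The other Jagged ligand, Jag1, did not pass in any comparison. Control libraries had 33.3, 21.0 and 32.2 CPM and anti-PD-1 libraries 18.4, 40.3 and 37.9 CPM. Entinostat libraries had 61.7, 44.1 and 30.8 CPM and combination libraries 39.0, 36.3 and 32.3 CPM. The groups overlapped, and entinostat library 1 was the highest. The main effect was 0.41 (95% confidence interval -0.10 to 0.91, edgeR adjusted p = 0.262). The difference between the Jagged ligands was not itself tested.

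Of the Delta ligands, Dll1, a ligand of developing neural tissue, stood at 1.29, 10.1 and 39.9 CPM in the control libraries and at 8.12, 24.5 and 4.50 CPM with anti-PD-1. Entinostat libraries had 10.5, 3.57 and 9.16 CPM and combination libraries 6.03, 6.99 and 2.74 CPM. Control libraries alone spanned the whole range of the other 9. The main effect was -1.19 (95% confidence interval -2.66 to 0.29, edgeR adjusted p = 0.265). Dll4, the ligand of sprouting vessel tips, stood at 3.93, 41.3 and 18.8 CPM in the control group and at 10.1, 30.7 and 9.97 CPM with anti-PD-1. With entinostat it stood at 8.00, 19.6 and 13.6 CPM, and with the combination at 19.4, 14.3 and 7.39 CPM. Here too the control libraries held both the lowest and the highest value, and the main effect was -0.47 (95% confidence interval -1.58 to 0.64, edgeR adjusted p = 0.563).

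The target repressors Hes1 and Hey1 did not pass in any of the 8 comparisons. Hes1, a general target of the pathway, stood at 2.43, 3.64 and 1.82 CPM in the control group and at 1.50, 8.40 and 4.68 CPM with anti-PD-1. Entinostat libraries had 10.4, 4.98 and 2.90 CPM and combination libraries 9.54, 4.25 and 4.10 CPM. All combination values were above all control values, yet the main effect was 0.75 (95% confidence interval -0.25 to 1.76, edgeR adjusted p = 0.296) and the combination against control 1.18 (SE 0.65, adjusted p = 0.245). Hey1, a target used in vessels and heart, stood at 22.3, 10.1 and 25.0 CPM in the control group and at 8.02, 44.9 and 27.2 CPM with anti-PD-1. Entinostat libraries had 34.9, 11.7 and 11.5 CPM and combination libraries 23.8, 9.73 and 18.3 CPM. Hey1 overlapped in every pair of groups, and its main effect was -0.31 (95% confidence interval -1.27 to 0.65, edgeR adjusted p = 0.672).

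Rest was lower in the control group than in any other by mean. Its control libraries had 1.25, 4.47 and 1.72 CPM and its anti-PD-1 libraries 10.5, 6.74 and 3.14 CPM. Entinostat libraries had 11.3, 8.72 and 3.73 CPM and combination libraries 14.0, 8.62 and 9.40 CPM. The combination was above control without overlap, and the single agents each overlapped control through 1 library at 3.14 or 3.73 CPM. Rest rose with the combination against control by 2.10 (SE 0.60, edgeR adjusted p = 0.0455), a call that held in 3 of the 12 fits without a library (without control library 2, anti-PD-1 library 3 or entinostat library 3). Entinostat against control gave 1.67 (SE 0.60, adjusted p = 0.118), anti-PD-1 against control 1.45 (SE 0.59, unadjusted p = 0.0317, adjusted p = 0.277) and the main effect of entinostat 1.16 (SE 0.42, adjusted p = 0.0908, or 0.0315 by DESeq2).

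In counts without overlap, 4 of the 10 genes were higher with entinostat than in control (Notch1, Notch2, Notch3 and Jag2), against 13.1% of all genes. With the combination against control it was 6 of the 10 (these and Hes1 and Rest), against 15.2% of all genes. With the combination against anti-PD-1 it was Notch2 and Jag2, against 9.92%. None of the 10 was lower without overlap in these 3 comparisons, where 15.7%, 16.7% and 9.25% of all genes were, nor in the main effect, where 2.32% were.

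**Figure D2:**
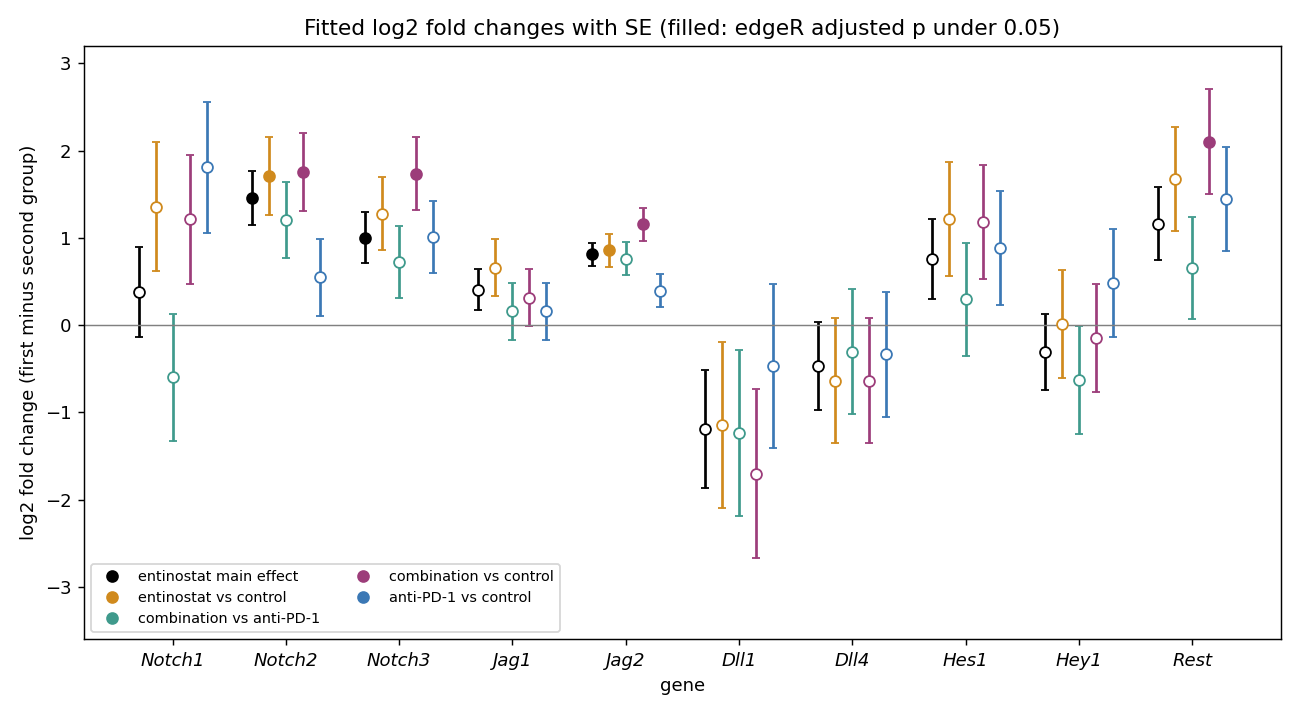
Log2 fold change of each gene (points) with its standard error (bars) for the entinostat main effect and 4 pairwise comparisons; filled points passed an edgeR adjusted p under 0.05. Filled points are limited to Notch2, Notch3, Jag2 and Rest, and Dll1 and Dll4 lie below 0 in all 5.

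For the antibody, none of the 10 genes passed. The main effect of anti-PD-1 called 0% of all genes with edgeR (10.8% at an unadjusted p under 0.05, and 103 genes with DESeq2). Notch3 had 0.73 (SE 0.29, unadjusted p = 0.0268), Jag2 0.35 (SE 0.13, 0.0250) and Rest 0.94 (SE 0.41, 0.0431), with adjusted p-values of 0.413, 0.413 and 0.454. Anti-PD-1 against control called 0.00574% of all genes, a single gene. There Notch1, Notch3 and Rest had an unadjusted p under 0.05, as did 15.4% of all genes. For the combination against entinostat, 0% of all genes passed (1.55% unadjusted, 1 gene with DESeq2). No interaction of the 2 agents passed either (0% of all genes, 6.03% unadjusted, 57 genes with DESeq2). Anti-PD-1 library 2 was the highest of its group for 8 of the 10 genes, Jag2 and Rest being the exceptions. It also had the largest share of structural RNA, 36.4%. With those RNAs left out of the fit, the entinostat main effect still called Notch2, Notch3 and Jag2. The part of this library's composition in its Notch gene values was not tested.

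Levels between genes were compared as CPM per kb of exon, with exon lengths from GENCODE M21, an annotation of another build than the counts. In control tumours the order of mean levels was Jag2 at 6.04, Hey1 at 5.86, Dll4 at 5.53, Jag1 at 4.95, Dll1 at 4.05, Notch2 at 2.21, Hes1 at 1.29, Notch3 at 1.10, Notch1 at 0.709 and Rest at 0.343 CPM per kb. Neighbours in that order overlapped over the 3 libraries, except Notch2 (1.84 to 2.77) and Hes1 (0.894 to 1.79). In combination tumours Jag2 led with 13.5 CPM per kb, and its range of 12.1 to 15.9 did not overlap that of Notch2, next in order with 7.44 (5.73 to 10.1). Jag1 followed with 6.16, Hey1 with 5.29, Notch3 with 3.65, Dll4 with 3.55, Hes1 with 2.93, Notch1 with 1.64, Rest with 1.48 and Dll1 with 1.25. In that list the ranges of Hes1 and Notch1 also did not overlap, by a small gap (2.01 and 2.00).

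**Figure D3:**
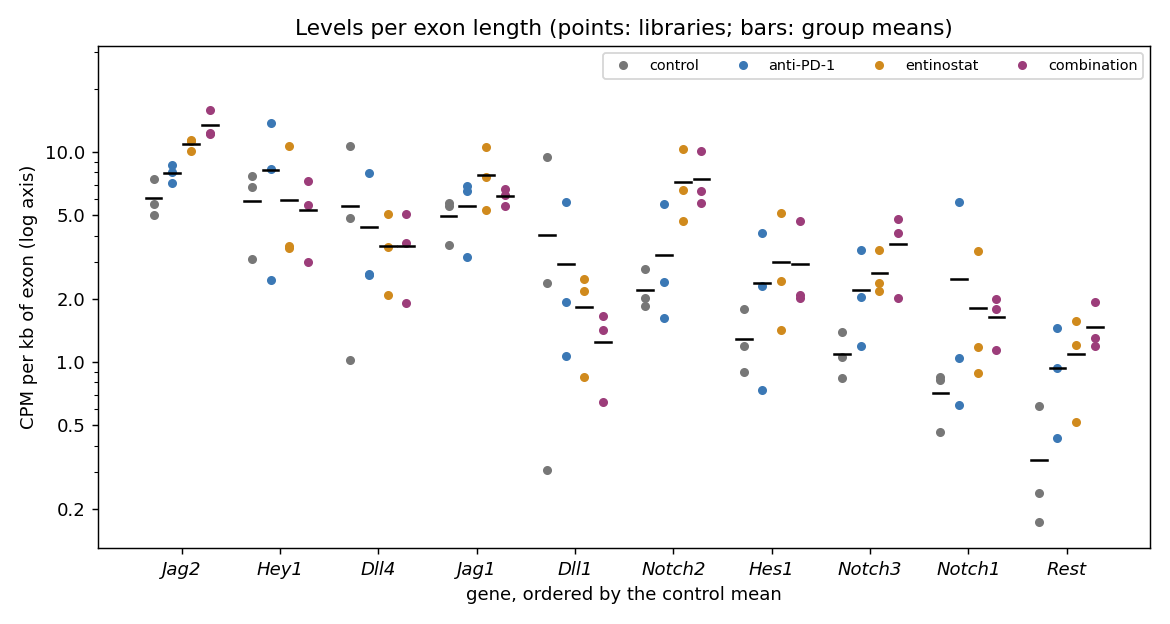
CPM per kb of exon on a log axis for each gene, ordered by the control mean; points are libraries, bars group means and colours the 4 groups. Jag2 is the highest by mean in control (6.04) and combination (13.5), Notch2 moves from 2.21 to 7.44, and Rest is lowest in control at 0.343.

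Some markers of other cells also passed in the entinostat main effect, where 3.87% of all genes rose and 6.74% fell. The endothelial gene Erg rose (1.55, SE 0.39, edgeR adjusted p = 0.0299), 1 of 13 endothelial markers. Of 10 mural markers 2 rose, Myh11 (1.24, SE 0.29) and Cspg4 (1.30, SE 0.32), and of 9 fibroblast markers Pdgfra rose (1.18, SE 0.33). Of 13 neuroendocrine markers 2 fell, Calca by 2.75 (SE 0.76) and Uchl1 by 1.15 (SE 0.27). In the 12 fits without a library these marker calls held in 7 for Myh11 and Uchl1, 6 for Erg and Cspg4, 3 for Calca and 2 for Pdgfra. None of the 12 alveolar, 8 airway, 12 macrophage or 7 tested T cell markers passed with edgeR or DESeq2, where 1 macrophage and 1 T cell marker had an unadjusted p under 0.05. Summed endothelial markers ran from 92.3 to 130 CPM in control, 106 to 136 with anti-PD-1, 98.7 to 228 with entinostat and 98.8 to 231 with the combination. Summed mural markers ran from 246 to 391, 137 to 281, 267 to 410 and 260 to 364 CPM in the same order. Summed fibroblast markers ran from 266 to 350, 147 to 788, 585 to 736 and 481 to 1429 CPM. Median log2 fold changes in the main effect were 0.93 for the fibroblast and alveolar lists, 0.67 for mural and 0.50 for endothelial markers. They were 0.38 for macrophage, -0.40 for T cell, -0.46 for neuroendocrine and -0.48 for airway markers, beside 0.58 for the 10 genes. No endothelial or mural marker was at 0 in any library, while Cd3e, which defines T cells, was at 0 in 5. In bulk tissue, more cells of a type and more RNA per cell cannot be told apart.

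The calls were refitted with the mean marker level of a cell type as a covariate. Without a score, the main effects were 1.46 for Notch2, 1.00 for Notch3 and 0.81 for Jag2. With the endothelial score, Notch2 had a main effect of 1.16 (edgeR adjusted p = 0.0742), Notch3 1.05 (0.102) and Jag2 0.89 (0.0265). With the alveolar score these were 1.21 (0.0959), 1.06 (0.116) and 0.87 (0.0337). With the mural score they were 1.06 (0.187), 0.78 (0.336) and 0.79 (0.0832), in a fit in which no gene of the table passed. Rest against control with the combination was 1.66 (0.106), 1.85 (0.106) and 1.64 (0.0697) with the endothelial, alveolar and mural scores. Jag2 thus kept its call with 2 of the 3 scores in the main effect and with all 3 in combination against control, and Notch2, Notch3 and Rest lost theirs with each. Fewer genes of the whole table also passed in the main effect with each score than without one. Scores of the fibroblast, neuroendocrine and other marker lists were not fitted. The fibroblast score averaged 2.85 in control, 3.95 with entinostat and 4.12 with the combination, and the neuroendocrine score 5.92, 5.33 and 5.29.

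**Figure D4:**
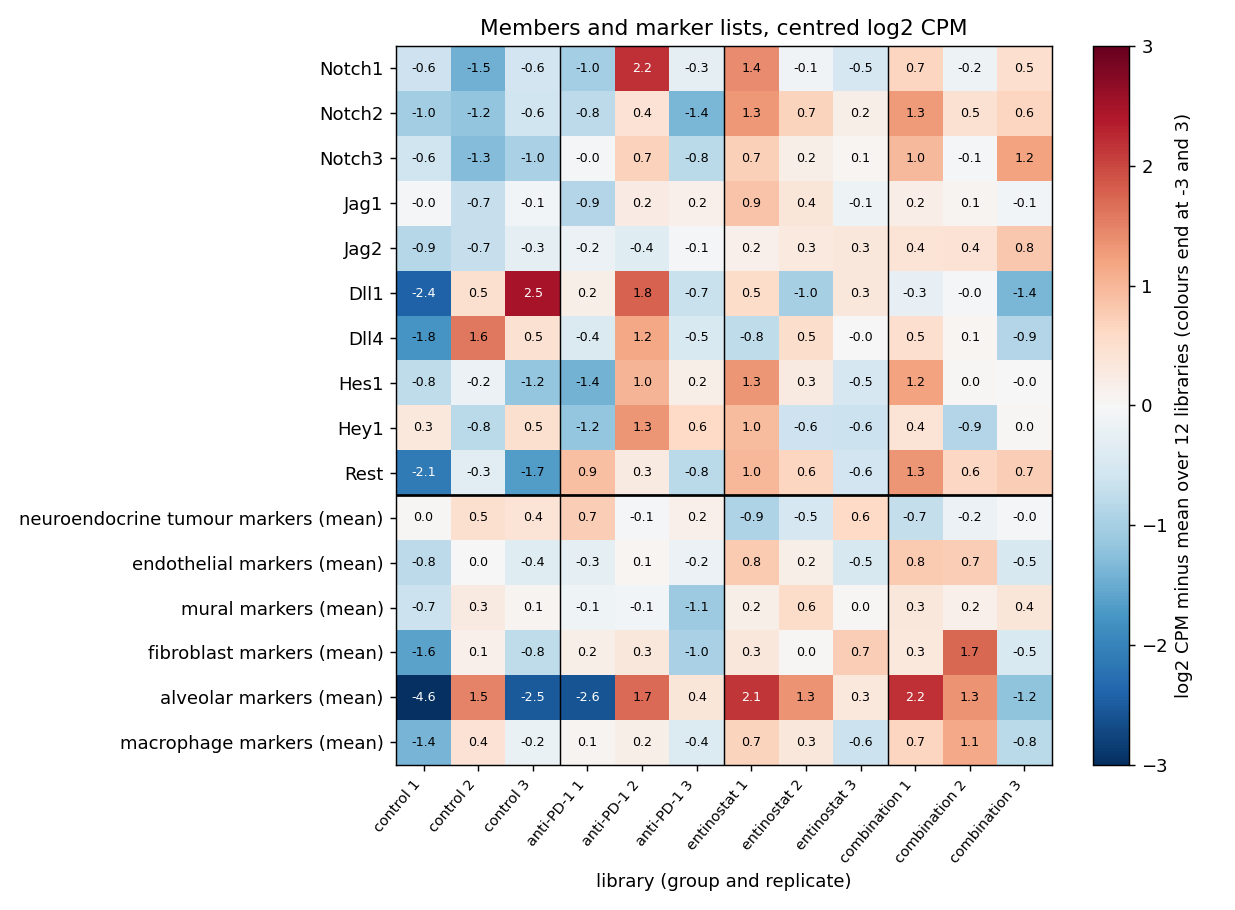
Log2 CPM minus the mean over 12 libraries, for the 10 genes and, below the thick line, for the mean of 6 marker lists, in each library (columns); colours end at -3 and 3. Jag2 is below 0 in the 6 libraries without entinostat and above 0 in the 6 with it.

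Other genes of the pathway were followed in 7 lists. Of 5 further receptors and ligands (Notch4, Dll3, Dlk1, Dlk2 and Dner), none passed with edgeR in the entinostat main effect, where 1 had an unadjusted p under 0.05 and DESeq2 called 0. Of all genes 29.1% had an unadjusted p under 0.05 there. Dner, a neuronal Notch ligand, went from 89.3 CPM ± 69.0 without entinostat to 34.0 CPM ± 18.6 with it, and Dlk1, an imprinted Delta-like gene, from 15.9 CPM ± 22.5 to 51.2 CPM ± 92.5 (SD, 6 libraries each). For each gene the larger of the 2 SDs exceeded the difference between the means.

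Of 14 genes for receptor glycosylation and processing, 1 rose and 3 fell in the entinostat main effect, where 3.87% of all genes rose and 6.74% fell. The list median was -0.11 beside 0.02 for all genes. Adam17, a protease that can shed the Notch ectodomain, rose by 0.46 (SE 0.12, edgeR adjusted p = 0.0361). Aph1b, a subunit of the gamma-secretase complex that releases the intracellular domain, fell by 1.10 (SE 0.20, adjusted p = 0.0119), from 26.3 CPM ± 7.22 to 12.2 CPM ± 1.85, and no library with entinostat (highest 14.6 CPM) reached one without (lowest 17.7 CPM). Psenen, another gamma-secretase subunit, fell by 0.66 (SE 0.18, adjusted p = 0.0407). Mfng, a fringe glycosyltransferase that modifies Notch receptors, fell by 0.78 (SE 0.21, adjusted p = 0.0358). Of these, Aph1b passed in all 12 fits without a library, Mfng in 3, and Adam17 and Psenen in 2 each. Of 12 genes for ligand endocytosis and receptor turnover none passed with edgeR, where 1 had an unadjusted p under 0.05 and DESeq2 called Numb. The most expressed were Mib1, an E3 ligase for ligands (125 CPM ± 25.2 with entinostat and 96.5 CPM ± 31.3 without), and Neurl1b (74.0 CPM ± 34.3 and 55.0 CPM ± 15.7).

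Of 16 genes of the nuclear complex and its corepressors, 3 rose and none fell (3.87% of all genes rose and 6.74% fell). The list median was 0.35 beside 0.02 for all genes. Maml2, a coactivator of the Mastermind family, rose by 1.25 (SE 0.25, edgeR adjusted p = 0.0144), from 3.29 CPM ± 1.63 to 7.36 CPM ± 1.79, in all 12 fits without a library. Tle4, a Groucho corepressor, rose by 1.39 (SE 0.40, adjusted p = 0.0478, passing in 2 of the 12). Ep300, a histone acetyltransferase, rose by 0.39 (SE 0.10, adjusted p = 0.0352, passing in 1 of the 12). That mean joins 0.87 for entinostat against control (SE 0.15, adjusted p = 0.0157) and -0.08 for the combination against anti-PD-1 (SE 0.15, adjusted p = 0.854). The interaction for Ep300 was -0.95 (SE 0.21, unadjusted p = 0.000659, edgeR adjusted p = 0.541), and DESeq2 called it. Of 14 other target genes 11 were tested and none passed with edgeR, where 1 had an unadjusted p under 0.05 and DESeq2 called Id3. The most expressed were Hes6, a Hes family member that favours neuronal differentiation (76.4 CPM ± 41.9 with entinostat and 164 CPM ± 145 without), and Id2 (62.2 CPM ± 34.1 and 46.5 CPM ± 26.2).

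Around Rest, 1 of 14 genes of its complex rose and 1 fell in the main effect (3.87% of all genes rose and 6.74% fell), and the list median was -0.01. Rcor1, the CoREST scaffold, rose by 0.56 (SE 0.13, edgeR adjusted p = 0.0246, passing in 7 of the 12 fits without a library), from 21.1 CPM ± 2.91 to 31.1 CPM ± 1.55. Ctbp1, a corepressor, fell by 0.55 (SE 0.15, adjusted p = 0.0353, passing in 3). Of 28 neuronal genes described as REST targets, 2 fell and none rose (6.74% of all genes fell and 3.87% rose), a share near that of all genes. The list median was -0.35 beside 0.02 for all genes. Stmn3, a neuronal regulator of microtubules, fell by 1.99 (SE 0.28, adjusted p = 0.00662), from 187 CPM ± 117 to 44.4 CPM ± 8.87, in all 12 fits. Scg2, a secretory granule protein, fell by 2.39 (SE 0.67, adjusted p = 0.0450, passing in 3). These neuronal genes also mark neuroendocrine tumour cells, whose summed markers ran from 1389 to 2102 CPM in control, 1094 to 1661 with anti-PD-1, 770 to 1343 with entinostat and 638 to 1185 with the combination. The part of tumour cell content in the lower values was not tested.

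The genes most like each member over the 12 libraries were found by the root mean square difference of centred log2 CPM among 16004 candidates. Jag2 was closest to Synj2 (0.15) and Ctsw (0.17), against its own SD of 0.50. Notch2 was closest to Pdgfb (0.27) and Abcd4 (0.30, own SD 0.95), and Notch3 to Adam1a (0.22) and Ap5b1 (0.30, own SD 0.80). One of the genes closest to Rest was Plcb2 (0.37, own SD 1.10). Hes1 was nearest to Wwtr1 (0.30) and Eln (0.31). Notch1 had Six2 (0.47) and Afap1l2 (0.50), Jag1 had Bak1 (0.19) and P3h1 (0.20), Dll4 had Shtn1 (0.25) and Ntn4 (0.33), and Dll1 had Gria3 (0.47) and Dpp4 (0.74). No member of the 10 was among the genes nearest to another.

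Some features of the genes bear on how their values were read. Notch1, Notch2, Notch3, Jag2 and Rest belong to the top quartile of genes by exon length, whose median main effect was 0.13, against -0.03 for the shortest. With that trend removed, the main effect was 1.30 for Notch2 (edgeR adjusted p = 0.0234), 0.71 for Jag2 (0.0131) and 0.89 for Notch3 (0.0660). Rest lost its call in the combination against control, with 1.94 (edgeR adjusted p = 0.0568). In GENCODE, exons of Dll1 share 20.6% of their length with the opposite-strand gene A930024N18Rik, those of Notch1 7.5% with 0610009E02Rik, Notch3 6.0% with Gm17276, Dll4 5.6% with Gm14207 and Notch2 5.0% with Gm42820 on the same strand. No source used here gives the strand setting of the counts, so reads there cannot be assigned. Jag1, Jag2, Hes1, Hey1 and Rest share exons with no other annotated gene.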

How the data were processed

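Frozen tumour was dissected and its RNA poly(A)-selected, per the labels' protocols. The structural RNAs Rpph1, Rn45s and Rmrp still took between 7.84% and 36.4% of counts, and how complete that selection was is not known here. The 12 libraries, which carry 1 batch label, were grouped by title. For combination libraries the treatment tag gives only the antibody, and the title was followed. The authors deposited 1 table of raw counts for 22738 genes, made with TPMCalculator per the labels. The submitters' processing notes list build mm9 with STAR 2.5.4a, Trimmomatic 0.36, Trim Galore, R 3.5.1 and DESeq2 1.22.2. No source used here gives the annotation, the strand setting or the handling of reads with several matches. Even numbers make up 65.3% to 77.2% of the counts between 1 and 20 in each library, so both mates of a pair may have been counted. Totals of 31295987 to 54001886 make counting error small beside the spread between libraries.

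Tests used edgeR 4.0.16 in R 4.3.3 (filterByExpr, TMM factors, 1 mean per group over all 12 libraries, robust quasi-likelihood F test). Each of 8 comparisons had its p-values adjusted by Benjamini-Hochberg over 17426 genes, and 0.05 was the threshold. SE is the size of the log2 fold change divided by the root of F. Group values are mean ± SD of CPM scaled by TMM factors, and log2 CPM uses a prior count of 2. Levels per kb use union exon lengths of GENCODE M21 (GRCm38), and 95.5% of tested genes had one. Alternatives were RLE and upper quartile factors, no filter, DESeq2 1.42.0, the 2 groups alone, a replicate block, halved counts, leaving out Rpph1, Rn45s and Rmrp, marker scores as covariates, each library left out, and removal of a length trend, the last added after the data were seen. The fits were tested on simulated data. All 66 pairs of libraries differed beyond sampling noise (lowest chi-square divided by its degrees of freedom, 31.8).

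The 10 genes, 7 pathway lists and 8 marker lists were chosen with earlier results of these data known. Named from each pathway list were up to 4 members passing in the entinostat main effect by smallest adjusted p, or else the 2 most expressed. For marker lists the rule was the 2 most expressed genes. The text follows it for the neuroendocrine list and otherwise departs from it, naming the marker genes that passed and Cd3e, chosen after their values were seen. For each of the 10 genes the rule names the 2 most alike genes, leaving out predicted genes; those of Hey1 and 1 of those of Rest are not reported here.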

Additional observations from a re-analysis of the deposited data

Results flagged for a closer look

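Notch1 was picked out because entinostat went with a higher mean without the antibody and a lower mean with it. Each of the 3 entinostat libraries (12.6 to 48.0 CPM) was above the control mean of 10.1 CPM, and each of the 3 combination libraries (16.2 to 28.4 CPM) was below the anti-PD-1 mean of 35.4 CPM. The interaction log2 fold change was -1.95 (95% confidence interval -4.22 to 0.31, edgeR adjusted p = 0.860), so the difference did not pass its test. The anti-PD-1 mean rests on library 2 at 82.3 CPM, beside 8.85 and 15.0 CPM in the others, which were below all 3 combination libraries. The median was 15.0 CPM with anti-PD-1 and 25.6 CPM with the combination.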

How the results depend on the processing

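No gene call named in the report changed direction under the alternatives run. In the entinostat main effect, Notch3 lost its call without a filter on low counts. It also did so with the replicate block (edgeR adjusted p = 0.0816) and with the length trend removed (0.0660). The number of the 10 genes called in that effect was 3 as reported. It was 4 with DESeq2, Rest being added, 1 with the endothelial or alveolar score, 0 with the mural score and between 1 and 3 without a library. It was 1, Jag2, without anti-PD-1 library 1 or combination library 1. For entinostat against control, 2 as reported, it was 4 with DESeq2, 1 without a filter, with the length trend removed or with the endothelial score, 0 with the mural or alveolar score or with the 2 groups alone, and between 0 and 2 without a library. It was 0 without control library 1 or 2 or any entinostat library. Leaving out Rpph1, Rn45s and Rmrp gave 1. For the combination against control, 4 as reported, it was 1 with each of the 3 scores, 0 with the 2 groups alone, where no gene of the table passed, and between 1 and 4 without a library. It was 1 without combination library 1 or 3, and 2 without control library 1, 2 or 3 or entinostat library 2. Rest also lost its call there with the length trend removed (edgeR adjusted p = 0.0568), and Notch2 with the replicate block (0.0565). For the combination against anti-PD-1, 0 as reported, DESeq2 gave 1. The other comparisons gave 0 in every fit.

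Replicate numbers recur across groups, but the labels do not say that they pair samples. The deviations of same-numbered libraries correlated between -0.29 and 0.23, 8 of 18 pairs were over 0.1, and 3 of 12 libraries correlated best with their own number. With the number as a replicate block, 1 of the 10 genes passed in entinostat against control, Notch3 no longer passed in the main effect (adjusted p = 0.0816) nor Notch2 in the combination against control (0.0565), and the number of all genes called fell from 1849 to 974 in the main effect, from 919 to 321 in entinostat against control and from 2033 to 1087 in combination against control.

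Of all genes, the main effect called 3399 with DESeq2, 531, 0 and 351 with the endothelial, mural and alveolar scores, and 600 to 2022 without a library. Entinostat against control called 561 with upper quartile factors, 2389 with DESeq2, 0 with the 2 groups alone, 280, 401 and 0 with the scores, and 2 to 1002 without a library. Combination against control called 3594 with DESeq2, 0 with the 2 groups alone, 696, 1036 and 471 with the scores, and 306 to 2039 without a library. Upper quartile factors moved the median of all genes from 0.02 to 0.15 in the main effect, from 0.00 to 0.20 in entinostat against control and from 0.05 to 0.28 in combination against control, where Hey1 went above 0. The cause of these shifts was not tested. The lowest count of the 10 genes in a library was 45, and limits from depth were not tested.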

Other observations

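Some genes of the fixed lists differed from control in the same direction in all 3 treated groups. They were chosen after their values were seen, and the share of all genes that did so in all 3 groups was not counted. The control libraries also had smaller shares of structural RNA (up to 13.2%) than any treated library (15.2% or more), and larger totals. The part of that library difference in the values of these genes was not tested. Without overlap, 13.1% of all genes were higher and 15.7% lower with entinostat against control. With the combination against control, 15.2% were higher and 16.7% lower. The share for anti-PD-1 against control is not given here. Poglut1, an enzyme that adds O-glucose to Notch, stood at 102 to 140 CPM in control, 45.0 to 50.4 with anti-PD-1, 41.9 to 74.3 with entinostat and 60.1 to 68.3 with the combination. It fell with entinostat against control by 1.08 (SE 0.22, edgeR adjusted p = 0.0225) and with the combination by 0.88 (SE 0.22, adjusted p = 0.0272), while anti-PD-1 against control was -1.28 (SE 0.22, adjusted p = 0.0716). Ep300 stood at 53.8 to 61.7 CPM in control and at 86.8 CPM or more in each of the other 9 libraries. It rose with entinostat against control by 0.87 (SE 0.15, adjusted p = 0.0157) and with the combination by 0.61 (SE 0.15, adjusted p = 0.0247), while anti-PD-1 against control was 0.69 (SE 0.15, adjusted p = 0.110). These comparisons share the 3 control libraries.

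Heyl, a Notch target of the Hey family used in mural cells, stood at 4.20 to 5.18 CPM in control, 9.12 to 24.8 with anti-PD-1, 6.47 to 14.4 with entinostat and 7.22 to 17.1 with the combination. Notch4, a receptor of endothelial cells, stood at 3.34 to 3.62 CPM in control, 4.88 to 7.62 with anti-PD-1, 4.67 to 7.87 with entinostat and 4.97 to 10.6 with the combination. Both were above control without overlap with entinostat and with the combination, yet neither passed with edgeR in any comparison. The lowest edgeR adjusted p was 0.0911 for Heyl and 0.0588 for Notch4, both in combination against control, where DESeq2 called both. Of all genes, 13.1% were above control without overlap with entinostat and 15.2% with the combination. The share with anti-PD-1 is not given here, so the anti-PD-1 ranges have no background to be read against. The share in all 3 groups was not counted.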
